A study of Caenorhabditis elegans with 2 samples.

Results

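The piRNA clusters of *Caenorhabditis elegans* chromosome IV were described by the 2012 regions of the pooled eGFP-ZTF-4 ChIP-seq list whose summit lay between 4500 and 7000 kb (908 regions, the left cluster) or between 13500 and 17200 kb (1104 regions, the right cluster) of that chromosome. The pooled list held 30000 regions in all, of which 3493 lay on the rest of chromosome IV. The members were chosen by position alone. The replicates' own lists, also of 30000 regions each, placed 1893 regions (replicate 1) and 1882 regions (replicate 2) in the same windows.

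Chromatin immunoprecipitation followed by sequencing was carried out on whole L2 larvae of both sexes of strain OP322 (unc-119(ed3) III; wgIs322), in which an inserted transgene targets ztf-4, the gene of a zinc finger protein, and the bait is labelled eGFP-ztf-4. There was 1 group with 2 biological replicates, which shared the strain, the stage and a fragment range of 150 to 350 bp. The unc-119 mutation and the transgene are thus present in every sample, and no untagged or untreated group was compared. Whole animals were used, so germline and somatic cells cannot be told apart. Per the submitters' listing of derived files, the region lists were made from the replicates' alignments and a control, so the control enters the signal values as deposited. The control data themselves were not analysed here.

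Piwi-interacting RNAs of *C. elegans*, also called 21U-RNAs, are small germline RNAs that usually begin with uridine and are bound by the Argonaute PRG-1. Most are made in clusters on chromosome IV, where each is transcribed as a short unit of its own from a small promoter with an upstream element, the Ruby motif, of which CTGTTTCA is the core. SNPC-4, PRDE-1, TOFU-4 and TOFU-5 occupy these promoters, and the RNAs guide silencing of germline transcripts through secondary small RNAs.

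The label of the windows was checked against the annotation (Ensembl release 115, WBcel235, the same assembly as ce11). The windows held 14204 of the 14714 annotated piRNA genes of chromosome IV (96.5%), with 2816 in the left and 11388 in the right cluster. All 14204 were 21 bp long and 96.2% began with T. CTGTTTCA on the sense strand, 25 to 70 bp before the start, was found for 4945 of them (34.8%), at a median first base of -46. The exact core was therefore absent from this interval in most annotated genes, which says only that these 8 letters are not there.

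Units from the 10 piRNA genes nearest to a peak summit are shown first, because they show what a piRNA unit looks like beneath a ZTF-4 region. Of those 10 genes 2 have CTGTTTCA at the usual distance, and both are among the 3 shown. Each line gives 70 bp before the annotated start followed by the gene, 5′ to 3′ on the gene's strand, on ce11 from the RefSeq copy of the genome. Capitals mark the 21 bp gene at the end and, where it is present, CTGTTTCA. The first is chrIV:5595961-5596051 (minus strand), the second chrIV:5602068-5602158 (minus strand) and the last chrIV:16167568-16167658 (plus strand).
21ur-7239: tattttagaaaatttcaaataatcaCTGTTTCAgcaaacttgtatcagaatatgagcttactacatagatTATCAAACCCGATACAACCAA
21ur-5149: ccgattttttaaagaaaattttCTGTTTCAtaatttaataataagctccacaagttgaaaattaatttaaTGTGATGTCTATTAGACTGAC
21ur-2814: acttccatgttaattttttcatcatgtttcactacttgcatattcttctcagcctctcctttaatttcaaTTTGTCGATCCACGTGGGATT

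Summits of strong cluster regions are shown next. These lines are centred on summits and those above on genes, so they cannot be compared directly. The lines below give the summit and 50 bp on each side, on the plus strand of ce11. They show the highest cluster region, the second highest cluster region and one in an intron of skn-1. Capitals mark GAGAGA (or TCTCTC on this strand), and where there are none neither it nor CTGTTTCA was found. The lines lie at chrIV:4750016-4750116, chrIV:14464204-14464304 and chrIV:5656065-5656165. The skn-1 region is number 8 of the cluster peaks by signal and is shown as an example with GAGAGA.
Y17G9B.5 and rpl-20: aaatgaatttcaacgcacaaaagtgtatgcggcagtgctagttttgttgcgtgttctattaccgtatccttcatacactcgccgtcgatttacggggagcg
dld-1: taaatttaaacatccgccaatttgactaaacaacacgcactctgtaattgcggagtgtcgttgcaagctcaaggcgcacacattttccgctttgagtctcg
skn-1: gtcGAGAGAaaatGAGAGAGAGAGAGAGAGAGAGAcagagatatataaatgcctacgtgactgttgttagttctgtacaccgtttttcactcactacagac

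Regions that overlapped a peak were a smaller share of the cluster regions than of the rest of the chromosome. A peak here means a region that overlaps, by at least 1 bp, the authors' optimal list. That list holds the regions past their cut-off on the irreproducible discovery rate (IDR), which scores how repeatable a region's rank is from one replicate to the next. In the clusters 81 of 2012 regions did so (4.03%, Wilson 95% interval 3.25 to 4.98), against 227 of 3493 on the rest of chromosome IV (6.50%, 5.73 to 7.36) and 7.33% of all 30000. In the replicate 1 list the shares were 4.49% and 6.33%, where 7.2% of all regions overlapped a peak. In the replicate 2 list they were 3.93% and 6.38%, with 7.1% over all chromosomes. The differences in the replicate lists were -1.84 and -2.44 percentage points, with a standard deviation of 0.428, and the pooled difference was -2.47. Both replicate lists were scored against the same optimal list, which was made from both replicates. This spread therefore does not measure how the peaks themselves vary between replicates. Intervals here and below cover the counting of regions only, since no read counts were used and the depth of the libraries is unknown.

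The right cluster, which holds 77.4% of the chromosome's piRNA genes, had the lowest share. There 33 of 1104 regions overlapped a peak (2.99%, 2.14 to 4.17), and its interval lay below that of the rest of the chromosome. The left cluster, with 48 of 908 (5.29%, 4.01 to 6.94), overlapped the interval of the rest. Outside the clusters the share was 6.61% before the left cluster, 6.43% between the clusters and 6.80% after the right cluster, the last from 103 regions only.

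**Figure D1:**
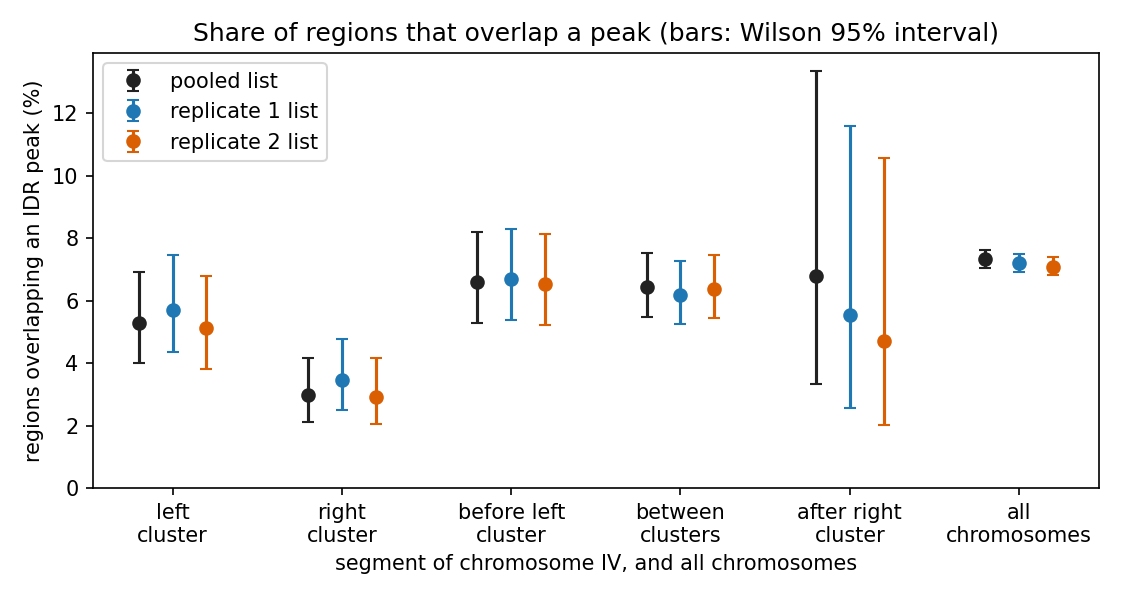
Share of regions that overlap a peak of the authors' optimal list (y axis, percent) in each segment of chromosome IV and over all chromosomes (x axis), for the pooled list and each replicate's own list; points are shares and bars are Wilson 95% intervals. The right cluster is the lowest segment in each of the 3 lists, at 2.99% in the pooled list, and the left cluster, at 5.29%, lies between it and the segments before and between the clusters.

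Over both clusters together the number of regions barely differed. The pooled list had 325 regions per Mb in the clusters and 309 on the rest of the chromosome, but the replicate lists had 305 against 305 and 304 against 310, so the direction was not the same in both. Taken singly, the clusters lay on opposite sides of the rest in each list. The left had 363 regions per Mb in the pooled list, 343 in replicate 1 and 344 in replicate 2. The right had 298, 280 and 276. The median signal value was 21.1 in the clusters (quartiles 17.7 and 27.2) and 22.6 on the rest of chromosome IV (quartiles 18.3 and 31.5), with 22.5 over the whole list. The signal is the authors' own value per region, of unknown scaling, and was used only within a list. In the replicate lists the cluster medians were 12.7 and 11.9, and those of the rest 13.1 and 12.7, which gave ratios of 0.970 and 0.941 against 0.935 in the pooled list, lower in the clusters in each.

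Cluster regions at piRNA starts were found in both replicate lists less often than the other cluster regions, with intervals that did not overlap. Of the replicate 1 regions within 100 bp of a piRNA start, 295 of 728 overlapped any region of the replicate 2 list (40.5%, 37.0 to 44.1), against 52.3% (49.4 to 55.1) of the other cluster regions and 55.1% of those on the rest of the chromosome. Taken from replicate 2, the shares were 42.7%, 51.7% and 54.9%. All 85 cluster regions of replicate 1 that overlapped a peak, and all 74 of replicate 2, overlapped a region of the other list, which the IDR threshold itself favours. Of these, 78 and 65 were among the other cluster regions. The regions near piRNA starts also had lower median signals, 12.2 against 13.0 in replicate 1 and 11.2 against 12.4 in replicate 2. The shares were not matched for signal.

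Summits of cluster regions often lay close to piRNA starts, but those of peaks seldom did. A piRNA start was within 100 bp of 743 of the 2012 summits (36.9%), while 29.8% of the bases of the clusters lay that close to one. By cluster, the share of summits was 23.8% on the left, where 17.0% of bases were that close, and 47.7% on the right, where 38.5% were. Among the 81 cluster regions that overlapped a peak, 7 had a piRNA start within 100 bp (8.64%, 4.25 to 16.8), against 736 of the other 1931 (38.1%, 36.0 to 40.3). The replicate lists gave 8.24% against 39.9% and 12.2% against 36.8%. The median distance from the summit to the nearest piRNA start was 1986 bp for peaks and 156 bp for the others.

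Read the other way, 7 of the 743 regions near a piRNA start overlapped a peak (0.942%, 0.457 to 1.93), while 74 of the 1269 cluster regions farther away did (5.83%, 4.67 to 7.26). The latter interval overlapped that of regions on the rest of the chromosome farther than 100 bp from a piRNA start (6.52%, 5.74 to 7.39). The order was kept on either side of the protein-coding starts. Within 500 bp of such a start, 1 of 73 regions near a piRNA start and 30 of 339 others overlapped a peak. These intervals overlapped (0.242 to 7.36% and 6.27 to 12.4%). Beyond 500 bp the counts were 6 of 670 and 44 of 930, and the intervals did not overlap (0.411 to 1.94% and 3.54 to 6.29%).

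GC content moved with these shares. The mean GC within 50 bp of the summit was 42.9% for cluster peaks and 30.5% for the other cluster regions, 27.0% for regions near a piRNA start and 33.3% for those farther away. The bases near piRNA starts had 28.0% GC and the remaining cluster bases 35.1%. In the clusters 73.7% of regions were under 35% GC, against 58.3% on the rest of chromosome IV. Among regions of at least 35% GC, a threshold chosen after the data were seen, 64 of 529 cluster regions (12.1%, 9.59 to 15.2) and 177 of 1455 on the rest of the chromosome (12.2%, 10.6 to 13.9) overlapped a peak. Here the lists were 13.3% against 12.4% in replicate 1 and 10.4% against 11.2% in replicate 2, so the direction was not the same in both. Under 35% GC the shares were 1.15% (0.717 to 1.83) and 2.45% (1.87 to 3.22), with 1.43% against 2.35% and 1.14% against 2.36% in the replicate lists.

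Within the clusters the same strata gave less certain differences between regions near piRNA starts and the others. At 35% GC or more, 2 of 48 near a piRNA start (4.17%, 1.15 to 13.98) and 62 of 481 farther away (12.9%, 10.2 to 16.2) overlapped a peak, and these intervals overlapped. The replicate 1 list gave 3 of 44 and 62 of 446, but in replicate 2 the shares were equal within their intervals, 4 of 38 (10.53%) and 55 of 528 (10.42%). Under 35% GC the counts were 5 of 695 (0.719%) and 12 of 788 (1.52%), and the intervals overlapped. In narrower GC steps of the pooled list the direction was mixed, with overlapping intervals in each. From 30 to 35% the counts were 4 of 122 and 4 of 245, and from 35 to 40% 2 of 30 and 11 of 200. The share near a piRNA start was the higher in both steps. From 35 to 40% both replicate lists gave this order, and from 30 to 35% only replicate 2. The near share was the lower under 30% (1 of 573 and 8 of 543) and from 40% (0 of 18 and 51 of 281). The part of GC content in the low peak share beside piRNA genes was not tested further.

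**Figure D2:**
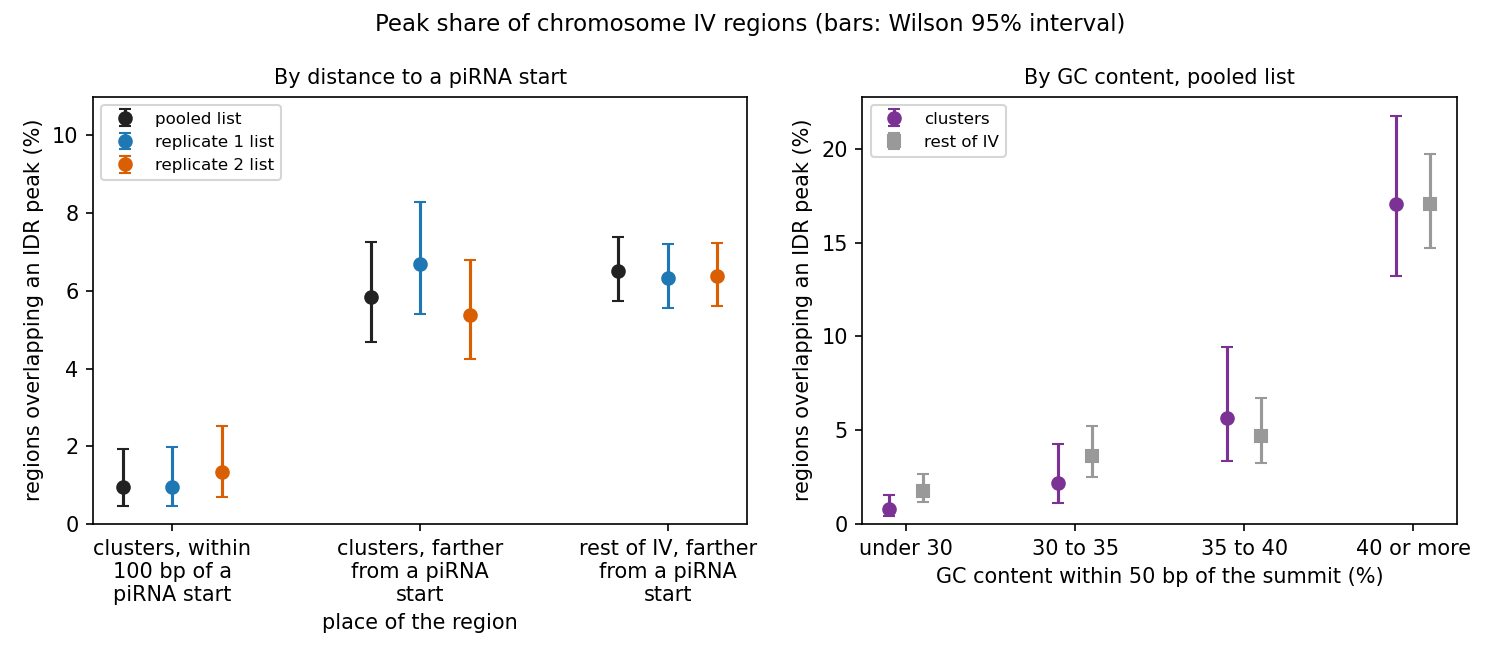
Share of chromosome IV regions that overlap a peak (y axes, percent), on the left by distance to a piRNA start for the pooled and replicate lists, and on the right by GC content within 50 bp of the summit for clusters and rest in the pooled list; bars are Wilson 95% intervals. Regions within 100 bp of a piRNA start sit near 0.942%, and at 40% GC or more the clusters (17.06%) and the rest of the chromosome (17.08%) meet.

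The shares near starts were also taken by signal value, which are not independent of the peak calls because the peaks are the highest-ranked regions. Of the 857 regions with a signal under 20, 42.9% had a piRNA start within 100 bp and 17.0% a protein-coding start within 500 bp. Between 40 and 60 the shares were 14.9% and 41.6% of 101 regions, and between 60 and 100 they were 11.4% and 34.1% of 44, so the protein-coding share did not rise at every step. Of the 23 regions with a signal of at least 100, 0 lay near a piRNA start, which allows a share of up to 13.0% by the limit of 3 regions of 23, or 14.3% by the Wilson interval drawn in the plot by signal, and 15 lay near a protein-coding start (65.2%, 44.9 to 81.2). Mean GC rose over the same bins from 29.1% to 48.2%.

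**Figure D3:**
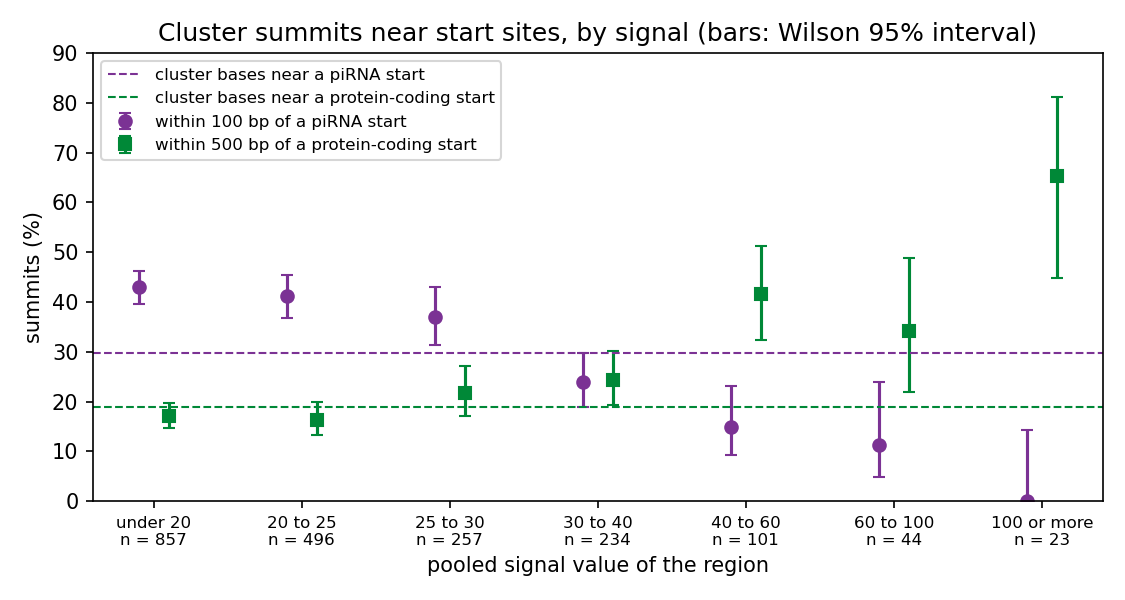
Share of cluster summits (y axis, percent) within 100 bp of a piRNA start (circles) or 500 bp of a protein-coding start (squares), by pooled signal value (x axis, with the number of regions in each bin); bars are Wilson 95% intervals and dashed lines are the shares of cluster bases that close. The piRNA share goes from 42.9% in the lowest bin to 0 of 23 in the highest, and the protein-coding share from 17.0% to 65.2%.

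Summits of the weak regions were spread on both sides of the piRNA starts. Of the 736 near a start, 373 lay upstream, 357 downstream and 6 on the start base, with a median position of -1.5 bp. Positions were measured to the nearest of closely spaced starts, 7065 of 14204 on the plus strand, which by itself places them around 0. No baseline from other cluster positions was taken, so this spread cannot be read as a property of the summits. CTGTTTCA, searched on both strands within 50 bp of the summit as CTGTTTCA or TGAAACAG, was present in 8.996% of cluster regions, 0.887% of those on the rest of the chromosome and 1.197% of all regions. The windows hold the piRNA genes that carry this motif, 4945 of them, so cluster sequence is rich in it wherever it is sampled. No share for cluster bases was taken, so a gathering of the motif at summits was not tested. The replicate lists gave 9.35% against 0.668% and 9.03% against 0.829%. Near a piRNA start 20.3% of cluster regions held it, and of the 81 that overlapped a peak 2 did (2.47%). The piRNA genes with the motif had a region within 100 bp in 8.53% of cases and those without it in 8.01%, in the pooled list.

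**Figure D4:**
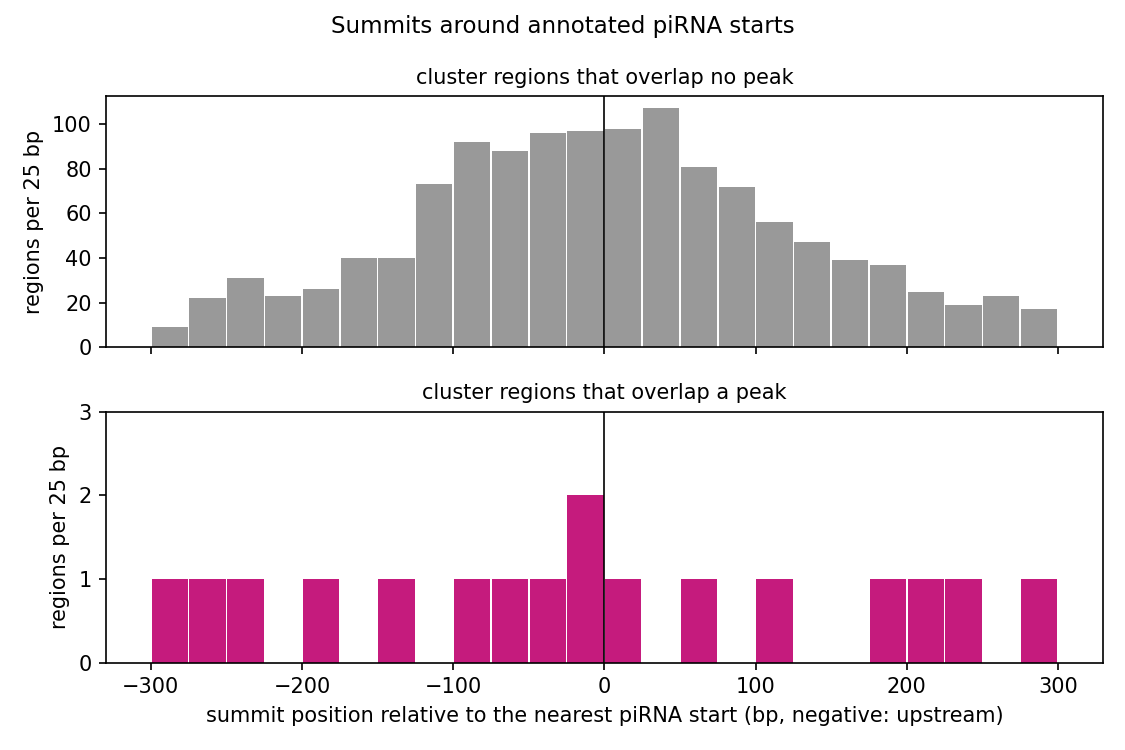
Number of cluster regions per 25 bp (y axes, different scales) by the position of the summit relative to the nearest annotated piRNA start (x axis, bp, negative upstream in the gene's direction), for regions that overlap no peak (top) and a peak (bottom). The weak regions form a broad mound around the start with 373 upstream and 357 downstream within 100 bp, and the peaks number at most 2 in any bin.

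Seen from the genes, 1164 of the 14204 piRNA genes in the clusters (8.19%) had a region of the pooled list within 100 bp of the start, and 14 had one that overlapped a peak (0.0986%), against 2 of the 510 piRNA genes on the rest of the chromosome (0.392%). Within 500 bp the counts in the clusters were 4945 and 62 (0.436%), against 5 with a peak on the rest of the chromosome (0.980%). The shares on the rest of the chromosome thus stand on 2 and 5 genes. No intervals were taken, so a difference from the clusters cannot be read from them. In the replicate lists 12 and 15 genes had a peak within 100 bp. Several of the 14 share a region, since piRNA genes overlap one another.

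Of the 10 piRNA genes nearest to a peak, 21ur-7239, with CTGTTTCA starting at -45, lay 13 bp from a summit of signal 37.0, which touched a neighbouring peak. Its sequence is the first shown above. The same region also covered 21ur-7186 and 21ur-8986, at 82 and 86 bp. Region chrIV:6839279-6839642, of signal 41.5, had its summit 15 bp from 21ur-8870 and 18 bp from 21ur-14312, whose genes overlap. Both regions overlap a row of the optimal list without being rows of it.

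The other 5 lay at regions that are themselves rows of the optimal list. 21ur-5149, with CTGTTTCA at -48, lay 17 bp from a summit in an fkh-7 intron with a signal of 64.1 in the pooled list, 26.7 in replicate 1 and 32.0 in replicate 2. 21ur-2814 lay 29 bp from one of 63.3 (34.0 and 25.2), and 21ur-12729 lay 62 bp from one of 81.4 (38.0 and 45.2). For 21ur-4139, at 72 bp, the values were 71.6, 29.5 and 39.7, and for 21ur-14078, at 80 bp, 75.9, 42.8 and 34.9. All 5 were below the median of 83.9 of the cluster rows of that list, and the last 4 had no exact CTGTTTCA at the usual distance. Inexact matches were not searched for.

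The rows of the optimal list inside the clusters numbered 65 (3.23% of cluster regions, against 5.41% on the rest of chromosome IV and 5.98% of all), 36 on the left and 29 on the right. Their pooled signals ran from 61.3 to 630 with a median of 83.9, and the 189 on the rest of the chromosome had a median of 80.6. All 65 overlapped a region in both replicate lists, which the IDR threshold itself favours. Of these, 42 ranked among the first 1794, the length of the optimal list, in both (64.6%, against 62.4% on the rest of the chromosome). A protein-coding start lay within 500 bp of 30 of the 65, with the summit upstream of it for 25, and 30 lay more than 1000 bp from any. The summit was intergenic, outside any gene other than piRNA genes, for 40. At the lower end, the last rows had signals of 61.3, 61.3 and 62.1 and the first regions below them 60.1, 60.04 and 58.1.

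Cluster peaks were found at protein-coding starts more often than the other cluster regions. Within 500 bp of a start lay 31 of the 81 regions that overlapped a peak (38.3%, 28.4 to 49.2) and 381 of the other 1931 (19.7%, 18.0 to 21.6). Replicate 1 gave 42.4% against 19.9% and replicate 2 gave 41.9% against 21.1%. The same order was seen on the rest of chromosome IV, so it is not particular to the clusters. There 108 of 227 peaks (47.6%, 41.2 to 54.1) and 993 of the other 3266 regions (30.4%, 28.9 to 32.0) lay that close. The replicate lists gave 50.9% against 29.2% and 45.7% against 30.7% there. The intervals of the cluster peaks and of the peaks on the rest overlapped. For scale, 18.9% of cluster bases lay that close to a start, and 25.3% of bases on the rest of the chromosome. Over all regions, 20.5% in the clusters and 31.5% on the rest of the chromosome were near a protein-coding start, and the replicate lists gave 20.9% against 30.5% and 21.9% against 31.7%. Of the 941 protein-coding genes in the clusters 37 had a peak (3.93%, 2.87 to 5.37), against 125 of 2340 on the rest of the chromosome (5.34%, 4.502 to 6.33), so these intervals overlapped.

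The highest region of the clusters lay between Y17G9B.5 and rpl-20, a large-subunit ribosomal protein gene, at chrIV:4749954-4750204. Its signal was 630 in the pooled list, where it ranked 3 of 30000, 288 in replicate 1 (rank 2) and 343 in replicate 2 (rank 4). It stood 174 bp upstream of the start of Y17G9B.5, and the nearest piRNA gene was 17658 bp away. The second, at dld-1, which encodes dihydrolipoyl dehydrogenase, and nspg-9, had 242, 119 and 125, with its summit 263 bp upstream of dld-1 in an exon of the non-coding RNA LLC1.120. Upstream of ipla-6, named for a calcium-independent phospholipase A2, the values were 223, 93.4 and 128 at 804 bp. Both replicates thus placed these 3 regions within their first 111.

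The regions ranked next stood at genes of varied function, most of them just upstream of a start. Upstream of ntl-11, a subunit of the CCR4-NOT deadenylase, the pooled signal was 192 (81.7 and 106 in replicates 1 and 2), and upstream of sqd-1, a relative of heterogeneous nuclear ribonucleoproteins, 137 (65.4 and 75.9). Between C17H12.2 and vha-8, a subunit of the vacuolar ATPase, it was 147 (68.3 and 81.1). An intron of skn-1, the Nrf-type transcription factor of detoxification, held 140 (53.4 and 82.6), 510 bp upstream of the nearest start of the gene. W03F8.4 had 163, Y73B6BL.29 151 and a gene predicted on clone Y105C5A 140.

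The rest of the highest 20 included rpl-29 at 123 (60.6 and 67.7), mrps-7, of the mitochondrial ribosome, at 123 (53.2 and 65.6), and cyc-2.1, a cytochrome c, at 112 (53.6 and 60.7). usp-4 had 117, the interval between F29B9.11 and the histone demethylase gene jmjd-1.2 had 115, and an intron of the nuclear receptor gene nhr-46 had 106. Of the 20, the summit that lay closest to a piRNA start was that in nhr-46, at 321 bp. A region with 119 lay in exons of non-coding RNAs predicted on clone Y37A1B, 10395 bp from the nearest protein-coding start.

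**Figure D5:**
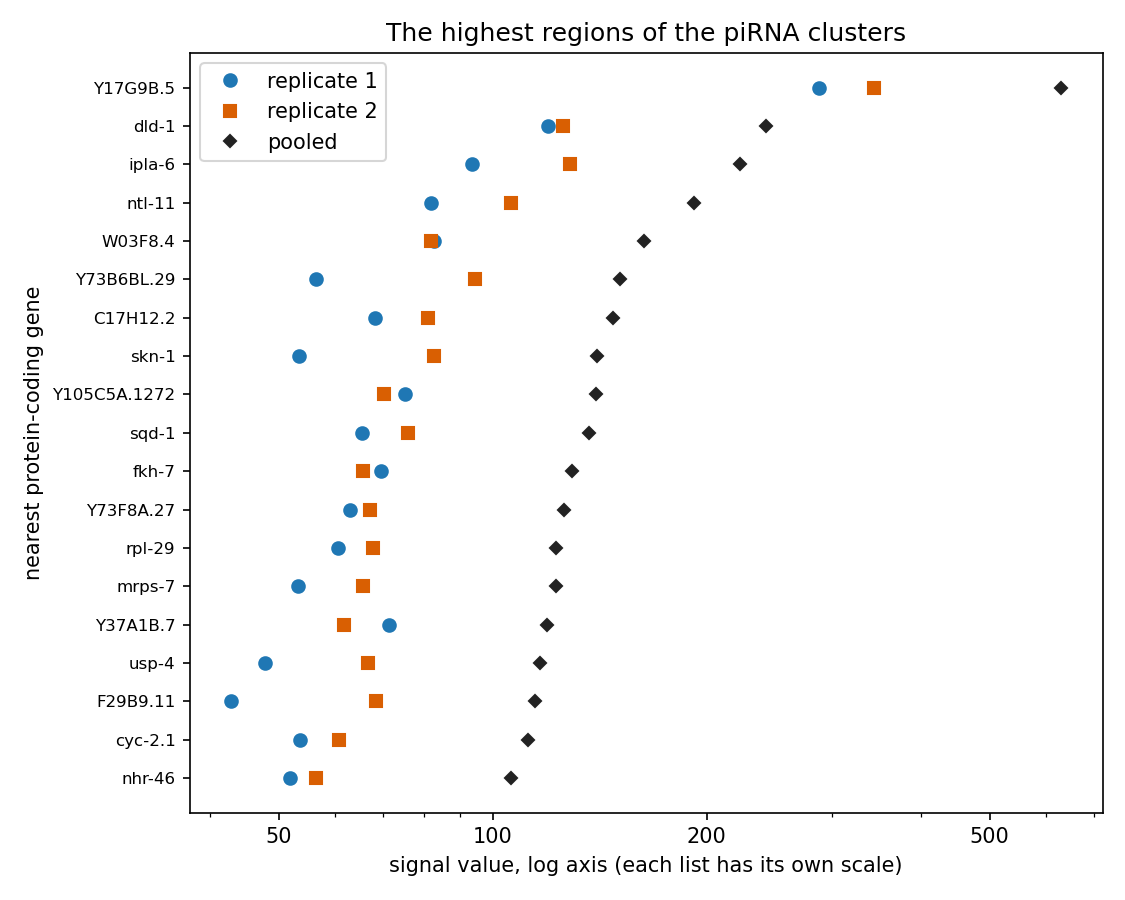
Signal values (x axis, log scale) of 19 of the 20 highest cluster regions in the pooled list (diamonds), replicate 1 (circles) and replicate 2 (squares), named by the nearest protein-coding gene (y axis), from the region at Y17G9B.5 and rpl-20 (630) down to that in nhr-46 (106). Each list has its own scale, so only the order within a list can be compared.

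The regions at ntl-11 and Y73F8A.27 share most of their summit sequence, and are shown because reads from near-identical copies can be assigned to either, an effect that was not tested. Their summits lay 987 bp apart, with signals of 192 and 126 in the pooled list, 81.7 and 63.0 in replicate 1 and 106 and 67.2 in replicate 2. Over an ungapped stretch of 84 bp, 77 bases were identical (91.7%), the highest likeness among the 2080 pairs of the 65 rows, for stretches of at least 60 bp, and the next pair reached 60%. Capitals mark the 7 bases that differ, and the stretches are chrIV:15471573-15471656 and chrIV:15472543-15472626 (plus strand).
ntl-11: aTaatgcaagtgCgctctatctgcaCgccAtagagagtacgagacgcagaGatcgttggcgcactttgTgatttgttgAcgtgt
Y73F8A.27: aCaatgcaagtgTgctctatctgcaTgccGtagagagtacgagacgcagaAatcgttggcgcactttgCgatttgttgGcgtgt

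Several peaks had the same nearest gene. The forkhead transcription factor gene fkh-7 was the nearest protein-coding gene of 7 rows of the optimal list, spread over 25365 bp, with signals of 129, 85.6, 79.8, 64.1, 62.4, 62.1 and 61.3. That stretch held 80 piRNA genes, and 39.5% of its bases lay within 100 bp of a piRNA start. The row of 64.1 was within 100 bp of one, and it holds 21ur-5149. skn-1 had a second row of 65.8.

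GAGAGA, searched on both strands as GAGAGA or TCTCTC within 50 bp of the summit, was present in 20 of the 81 cluster regions that overlapped a peak (24.7%) and in 6.94% of the other cluster regions, beside 24.4% of all peaks and 9.36% of all regions. The replicate lists gave 28.2% against 6.36% and 23.0% against 8.08%. The share in cluster peaks was thus close to that of peaks anywhere. Near piRNA starts 2.69% of regions held it. The skn-1 summit above is an example, with a long run of GA repeats.

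Other RNA genes in the clusters had peaks now and then. Within 500 bp of a start a peak was found for 2 of 41 transfer RNA genes, 2 of 18 small nucleolar RNA genes, 1 of 16 small nuclear RNA genes, 1 of 19 miRNA genes and 1 of 9 lincRNA genes, where 23, 10, 5, 6 and 2 of them had any region. Beside these small counts, 3.93% of the protein-coding genes in the clusters had a peak. The highest had 101 in the pooled list, 46.2 in replicate 1 and 61.0 in replicate 2. Its summit lay 312 bp downstream of the start of the snoRNA gene Y73B6A.15, past the end of that gene. Near the snRNA gene Y57G11C.35 a region had 75.9, with its summit 460 bp downstream of the start, past that gene and in an exon of Y57G11C.5. Near linc-50 the value was 62.1, with the summit at -231 bp from the start. The transfer RNA genes WBGene00022903 and WBGene00022959 had 73.5 each, with summits inside them at 53 and 28 bp. Near the snoRNA gene K08F11.8 and cel-mir-52 the regions, of 40.5 and 22.8, only touched a stronger neighbour. Their summits lay at 332 bp, past the end of K08F11.8, and at -420 bp from the start of cel-mir-52.

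Gene families inside the clusters were counted by gene symbol. Of 5 cytosolic ribosomal protein genes 3 had a peak within 500 bp of a start, rpl-20 (630), rpl-29 (123) and rpl-18 (87.5). Of 2 respiratory chain genes 1 had one (cyc-2.1), and the single chaperone gene, dnj-11, had 80.8. The dnj-11 region was shared with F38A5.2 and the rpl-20 region with Y17G9B.5, and in each case the other gene had the nearer start. Within 500 bp of a start, no peak was found for any of 86 chemosensory receptor genes, 9 major sperm protein genes, 8 collagen genes, 7 F-box genes, 7 neuropeptide or insulin genes and 5 nuclear receptor genes, although 12, 1, 3, 0, 3 and 3 of them had a region. The peak in nhr-46 named above lay 3713 bp from the nearest start of that gene. The background is 3.93% of the protein-coding genes in the clusters.

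The genes of the piRNA pathway, most of which lie elsewhere in the genome, were counted in the same way, beside 5.27% of all protein-coding genes with a peak. None of the 12 matched genes for piRNA transcription had a peak, and 5 had a region, the highest being snpc-4, a subunit of the small nuclear RNA activating complex, with 45.6 (26.9 in replicate 1 and 14.2 in replicate 2). Of 12 genes for processing of the precursors 0 had a peak and 4 had a region, the highest being tofu-1 with 53.8 (21.5 and 31.4), which shares it with ruvb-1. Of 23 effector genes 3 had a peak. At simr-1, which links primary piRNAs to secondary small RNAs, the signal was 159 (77.2 and 80.6), with the summit 500 bp from the start and shared with C06A5.3. At mut-15, a Mutator focus protein, it was 105 (54.8 in both) and shared with fib-1, the fibrillarin gene. At ekl-1, a partner of the RNA-dependent RNA polymerases, it was 73.2 (24.6 and 49.7) and shared with prpf-4. prg-1 itself had no region within 500 bp.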

How the data were processed

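ChIP-seq of 2 biological replicates of 1 group was used as deposited. The authors' region lists, in the narrowPeak format on ce11, gave a signal value per region in the deposited seventh column, whose scaling is not given, and a summit offset in deposited column 10 (another number, a distance in bp). For aligner, peak caller, IDR threshold and depth, the sources used here give nothing. The lists on ce10 were not used.

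Members were regions with a summit in the windows. Distances ran from the summit to the nearest annotated start in Ensembl 115, near meaning 500 bp for protein-coding and 100 bp for piRNA genes, and sequence came from the RefSeq genome. Worm annotation may place a start at a trans-splice site. A replicate's value for a region is the highest signal overlapping it by at least 1 bp. With 1 group and neighbouring regions no test was made: values are counts, shares with Wilson 95% intervals and medians, set against the spread of the replicate lists. Python 3.11.15 with pandas 2.3.3, numpy 2.4.6 and scipy 1.17.1 was used, and the functions were tested on simulated regions.

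The members, gene lists and motifs were chosen with earlier results of these data known. Genes named were the nearest within 1000 bp of the 20 highest regions, RNA genes within 500 bp of a peak, the 10 piRNA genes nearest a peak, pathway genes with a peak and the 3 regions on each side of the lowest row. Named after their values were seen were the nearest genes of regions farther out, fkh-7, the family members, snpc-4, tofu-1, prg-1 and the likeness of 2 summits. Of the 20 highest regions, 1 is not reported here.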

Additional observations from a re-analysis of the deposited data

How the results depend on the processing

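No paired analysis was possible because there was 1 group. A value was taken as unmoved when it shifted by less than 1 standard deviation of the replicate lists. Leaving 1 replicate out means that the other replicate's list was used. The optimal list, made from both replicates, still defined the peaks. Over 7 results and 56 alternatives, 18 were unmoved, 36 moved and 2 changed direction, and the cause was not tested. Counting identical regions once returned the main value each time, so it changed nothing. A reciprocal overlap of 50% and only rows of the optimal list gave the same values as each other. The replicate lists that set the standard deviation are themselves among the alternatives. The tally therefore does not measure robustness. The cluster minus rest peak share (-2.47 points) ran from -2.44 to -1.84 with 1 replicate left out, and was -1.21 with the left cluster alone, -3.51 with the right, -0.825 with the highest 50% of the optimal list, -1.85 beyond 500 bp of protein-coding starts, and, chosen after seeing the data, -0.0666 at 35% GC or more and -1.31 below. The ratio of median signals (0.935) ran from 0.941 to 0.970 with 1 replicate left out, and was 0.971 on the left, 0.912 on the right and 0.970 within 500 bp of protein-coding starts. The ratio of regions per Mb (1.05) reversed to 0.980 without replicate 1, was 1.001 without replicate 2, reversed to 0.965 on the right, and was 1.17 on the left and 1.07 with windows drawn in by 250 kb. The cluster minus rest share near protein-coding starts (-11.0 points) ran from -9.78 to -9.62 with 1 replicate left out, and was -7.62 on the left, -13.9 on the right, -12.6 with windows drawn in, -8.11 at 250 bp and -16.7 at 1000 bp. For peaks against other cluster regions, the difference in the share near piRNA starts (-29.5 points) ran from -31.6 to -24.6 with 1 replicate left out, and was -35.2 with the highest 50% of the optimal list, -15.8 at 50 bp, -42.8 at 200 bp, and, chosen later, -6.77 at 35% GC or more and -17.7 below. That near protein-coding starts (18.5 points) ran from 20.8 to 22.4 with 1 replicate left out, and was 26.5 with a reciprocal overlap of 50%, 28.9 with the highest 50% of the optimal list, 14.9 at 250 bp, 14.03 at 1000 bp and, chosen later, 26.5 with only rows of the optimal list. The difference in CTGTTTCA (8.11 points) ran from 8.20 to 8.68 with 1 replicate left out, and was 3.82 within 25 bp and 16.9 within 100 bp. Counts of regions limit the intervals, and the read depth behind each signal is unknown.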
